A study of Mus musculus with 6 samples.

Results

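The insulin-like growth factor (IGF) family was described in the pregnant mouse uterus through 10 genes: the ligands Igf1 and Igf2, the receptors Igf1r and Igf2r, and the binding proteins Igfbp2, Igfbp3, Igfbp4, Igfbp5, Igfbp6 and Igfbp7. The genes were chosen by name, and each was found once among the 56748 gene IDs of the tables. Uterine RNA was taken at 1600 h on day 4 of pregnancy, and the series' design text calls the tissue endometrium. The libraries fell into 2 groups of 3: uterus-specific Zip10-deficient mice, labelled Zip10 conditional knockout (Zip10 cKO), and controls labelled WT. Zip10 is the zinc importer encoded by Slc39a10, and the series' title asks about progesterone responsiveness. The sources used here do not give the promoter that drives the recombinase, the deleted exons, the strain or the animals' age. Nothing states that the libraries of a group came from separate animals, so the p-values measure the spread between these samples, which may be technical.

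IGF1 and IGF2 are secreted growth factors that act through IGF1R, a receptor tyrosine kinase that signals through the PI3K-AKT and MAP kinase pathways. IGF2R, also the cation-independent mannose 6-phosphate receptor, takes IGF2 up for breakdown in lysosomes and carries lysosomal enzymes. The binding proteins hold the ligands in the extracellular space, extend their life and limit or direct their access to the receptor. In the mouse uterus Igf1 is known as a target of oestrogen that carries growth signals from the stroma to the epithelium.

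The 250 bases before the annotated start are shown for 3 members to which the results return: Igf2r, the member whose groups did not overlap, Igfbp2, the member that varied most between libraries, and Igfbp7, the most abundant. The sequences are RefSeq's, on GRCm38.p6, matched by symbol, whereas the counts were made on GRCm39. They run 5′ to 3′ along the gene and overlap no exon of GENCODE M21. Capitals mark matches on either strand to 5 motifs, which may overlap each other: AGAACA, the core of progesterone and glucocorticoid receptor elements; AGGTCA, the core of oestrogen receptor elements; TATAAA; the GC box GGGCGG; and the AP-1 motif TGANTCA.
Igf2r (chr17:12769707-12769956, minus strand): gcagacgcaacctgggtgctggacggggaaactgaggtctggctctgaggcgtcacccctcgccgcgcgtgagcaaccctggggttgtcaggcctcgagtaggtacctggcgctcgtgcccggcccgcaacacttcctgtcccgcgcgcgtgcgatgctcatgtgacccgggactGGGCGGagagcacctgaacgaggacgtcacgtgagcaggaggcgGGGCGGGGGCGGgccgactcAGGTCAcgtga
Igfbp2 (chr1:72824230-72824479, plus strand): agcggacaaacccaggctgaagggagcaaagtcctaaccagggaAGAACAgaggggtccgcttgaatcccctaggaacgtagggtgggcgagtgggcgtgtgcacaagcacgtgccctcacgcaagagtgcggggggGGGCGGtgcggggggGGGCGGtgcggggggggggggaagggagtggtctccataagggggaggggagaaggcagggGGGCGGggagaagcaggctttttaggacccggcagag
Igfbp7 (chr5:77408046-77408295, minus strand): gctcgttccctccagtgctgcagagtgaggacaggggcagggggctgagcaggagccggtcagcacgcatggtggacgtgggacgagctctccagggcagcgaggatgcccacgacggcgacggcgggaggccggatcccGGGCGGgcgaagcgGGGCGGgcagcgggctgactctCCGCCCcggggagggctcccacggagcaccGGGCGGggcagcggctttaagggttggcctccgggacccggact
The Igf2r window held 3 matches to GGGCGG, of which the last 2 follow each other directly, and 1 to AGGTCA. The Igfbp2 window held 3 matches to GGGCGG and 1 to AGAACA, and the Igfbp7 window held 4 to GGGCGG. Of the 32851 windows of this length in the table, 32.7% held GGGCGG, 16.1% AGAACA, 14.0% AGGTCA, 12.4% TATAAA and 6.7% TGANTCA. All 10 members matched the table, in 14 windows. AGAACA was in 1 window of Igfbp2 and 1 of Igf2, and TATAAA in those of Igfbp4 and Igfbp6. The windows of Igf1r, Igfbp3, Igf2r and Igfbp7 held the most CpG dinucleotides, 42, 32, 27 and 26, against a median of 6.0 over all windows. Those of the other members ranged from 1, in a window of Igf2, to 22, in another of Igf2 and that of Igfbp4, with 5 for Igf1 and 7 for Igfbp6. A match is a description of letters and not of a bound site.

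The libraries were of similar depth, with 19643093 to 22328343 counts in the Zip10 cKO group and 20176528 to 22809577 in the control group. Slc39a10, the targeted gene, stood at 39.5, 72.5 and 79.8 CPM (read counts after scaling for library size) in the libraries labelled Zip10 cKO and at 54.6, 70.4 and 66.2 CPM in the controls, so its total was not lower in the labelled group (log2 fold change 0.00 ± 0.24, SE). Reads from exons that remain also count, so the total does not check the label, and every direction below is that of the libraries labelled Zip10 cKO. In a multidimensional scaling of all genes Zip10 cKO library 1 lay apart from the rest on dimension 1, at 1.58 against values from -0.77 to 0.02 for the other 5 libraries. Of genes that mark the labelled tissue, Hoxa10, a uterine stromal transcription factor, was at 234 to 308 CPM in the Zip10 cKO group and 288 to 322 CPM in controls, and the libraries also held smooth muscle RNA, with Myh11 at 2171 to 2549 CPM in the Zip10 cKO group and 898 to 1774 CPM in controls. Of 13 stromal markers 8 were at higher values in the Zip10 cKO group and 5 at lower values: Hand2, Hoxa10, Hoxa11, Nr2f2 and Twist2. Groups did not overlap for 5 of the higher markers and 2 of the lower, Hand2 and Hoxa11, beside 12.7% of all genes tested. The summed level of all 13 was 14567 to 16741 CPM in the Zip10 cKO group and 10333 to 13538 CPM in controls. Col1a1, Col1a2 and Col3a1 contributed most to it, so the sum mainly follows these collagen genes. Of 12 smooth muscle markers 11 were at higher values, with sums of 12577 to 17291 CPM in the Zip10 cKO group and 7500 to 13387 CPM in controls. Of 12 epithelial markers 10 were at lower values, with sums of 804 to 1193 CPM in the Zip10 cKO group and 935 to 1442 CPM in controls. Of 10 endothelial markers 9 were at lower values, with sums of 1045 to 1204 CPM in the Zip10 cKO group and 1110 to 1362 CPM in controls, while all 5 red blood cell genes were at higher values, with sums of 195 to 254 CPM in the Zip10 cKO group and 118 to 218 CPM in controls. Of 6 pericyte markers 4 were at higher values, with sums of 921 to 1035 CPM in the Zip10 cKO group and 814 to 998 CPM in controls. Macrophage sums were 438 to 895 CPM in the Zip10 cKO group and 387 to 563 CPM in controls, with all 10 markers at higher values, and lymphocyte sums were 113 to 160 CPM in the Zip10 cKO group and 84.3 to 97.8 CPM in controls, with 9 of 10 at higher values. None of these markers was at 0 in all libraries, whereas of 7 ovary and oviduct markers Hsd3b1, Fshr and Cyp19a1 were. Others of the 7 were present. Ovgp1 stood at 26.5 to 48.8 CPM in the Zip10 cKO group and 24.6 to 38.3 CPM in controls. Star stood at 12.7 to 16.5 CPM in the Zip10 cKO group and 10.6 to 12.2 CPM in controls, without overlap. Foxj1 averaged 0.491 CPM in the Zip10 cKO group and 0.628 CPM in controls, and Cyp11a1 0.208 and 0.126 CPM. In RNA from whole tissue, fewer cells of a type and less RNA per cell cannot be told apart, and the part of these markers in the values below was not tested.

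Transcript levels of the members spanned a wide range, and binding proteins made up most of them. On the scale of the authors' TPM (transcript abundance, which corrects for gene length), Igfbp7 was the most abundant member at 1088 ± 54.7 TPM (SD, n = 6 libraries), followed by Igfbp4 at 375 ± 22.9 TPM and Igfbp6 at 336 ± 36.8 TPM. Igf1 came next at 206 ± 15.5 TPM, then Igfbp5 at 148 ± 33.9 TPM and Igfbp3 at 87.4 ± 31.7 TPM. Igf2r stood at 24.7 ± 4.54 TPM, Igf2 at 11.2 ± 4.19 TPM, Igf1r at 8.84 ± 1.69 TPM and Igfbp2 at 2.42 ± 1.93 TPM. The ranges over the 6 libraries overlapped between the neighbours Igfbp4 and Igfbp6, Igf1 and Igfbp5, Igfbp5 and Igfbp3, and Igf2 and Igf1r. Within a library, Igf1 still lay above Igfbp5, and Igfbp5 above Igfbp3, in 6 of 6, while Igfbp4 exceeded Igfbp6, and Igf2 exceeded Igf1r, in 5 of 6. The remaining neighbours had ranges that did not overlap. Among all gene IDs ordered by mean TPM, Igfbp7 was at place 133, Igf1 at 530 and Igf1r at 9535.

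**Figure D1:**
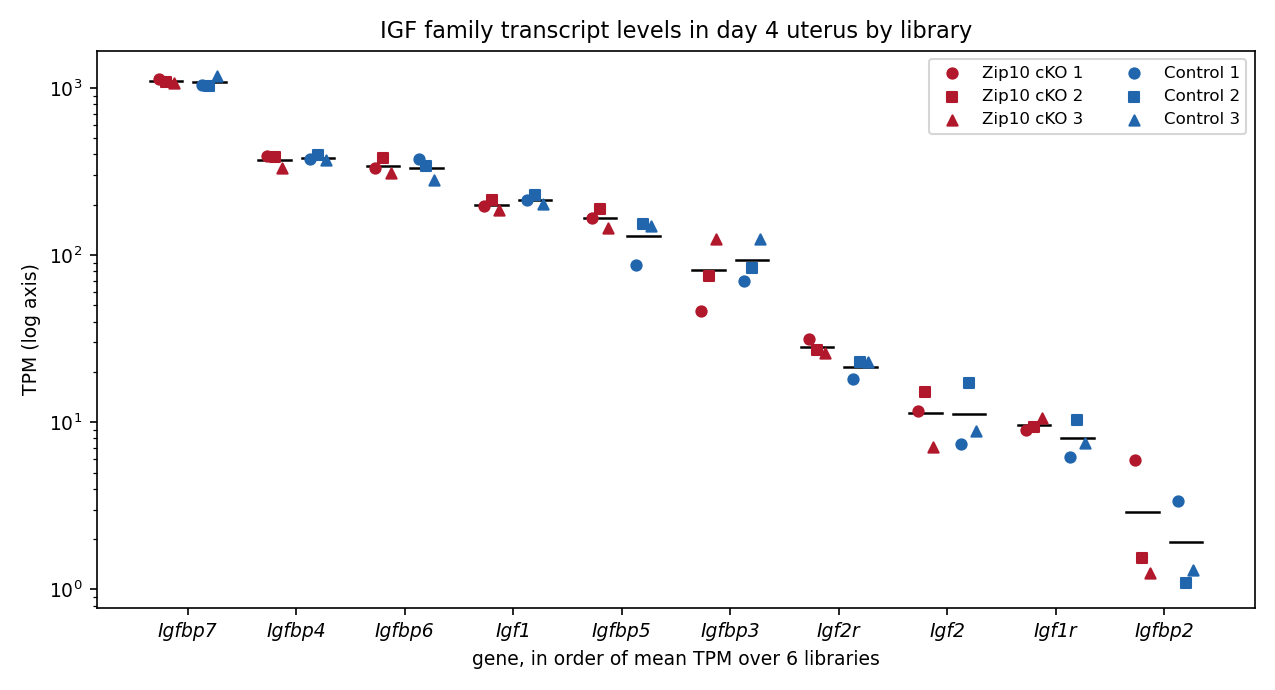
Deposited TPM on a log axis for each of the 10 genes, in order of mean level, with the 3 Zip10 cKO libraries left of the 3 controls, marker shapes for the replicate number and a bar at each group mean. The 6 libraries of Igfbp7 sit between 1027 and 1176 TPM, while those of Igfbp2 are spread from 1.10 to 5.97 TPM, with library 1 of each group highest.

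The binding proteins outweighed the ligands in every library. Their summed level was 9.93, 9.23 and 10.32 times that of Igf1 plus Igf2 in Zip10 cKO libraries 1 to 3, against 8.86, 8.13 and 10.03 times in control libraries 1 to 3, so the groups overlapped. Without Igfbp7, which binds IGFs with low affinity, the ratio was 4.52, 4.49 and 4.76 in the Zip10 cKO libraries and 4.13, 3.96 and 4.43 in the controls. Here the groups did not overlap, although the lowest Zip10 cKO library and the highest control lay close together. Among single genes tested, 12.7% had groups that did not overlap in CPM, and the ratio with Igfbp7 did overlap. These sums were not tested. Igfbp7 alone made up 51.3% to 54.5% of the summed binding protein TPM in the Zip10 cKO group and 51.3% to 55.8% in controls. The share of Igfbp5 was 8.07%, 8.93% and 7.28% in the Zip10 cKO libraries and 4.47%, 7.64% and 7.10% in the controls, and that of Igfbp3 was 2.23%, 3.53% and 6.27% against 3.61%, 4.18% and 5.95%. Both shares overlapped between groups.

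The comparison of Zip10 cKO with control libraries asked whether any member differed with the genotype label. All 10 members passed the filter on low counts. None had an adjusted p under 0.05 by edgeR (quasi-likelihood test), DESeq2 or limma-voom. Over all 16737 genes tested the share called was 0% in edgeR, whose smallest adjusted p was 0.626, and limma-voom called 0 of the same genes. Of 28980 genes with counts, edgeR without a filter on low counts called 15. DESeq2, given the same genes and with its own default filter on mean count, called 38. In edgeR 5 members had positive and 5 negative log2 fold changes, with a median of -0.01, beside a median of -0.002 over all genes tested. At an unadjusted p under 0.05 there was 1 member, Igf2r, in each of the 3 tools, and over all genes edgeR gave 6.46%. Igf2r was also the 1 member whose groups did not overlap in CPM, where 12.7% of all genes tested had groups that did not overlap, 6.93% with the Zip10 cKO group higher and 5.78% with it lower.

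**Figure D2:**
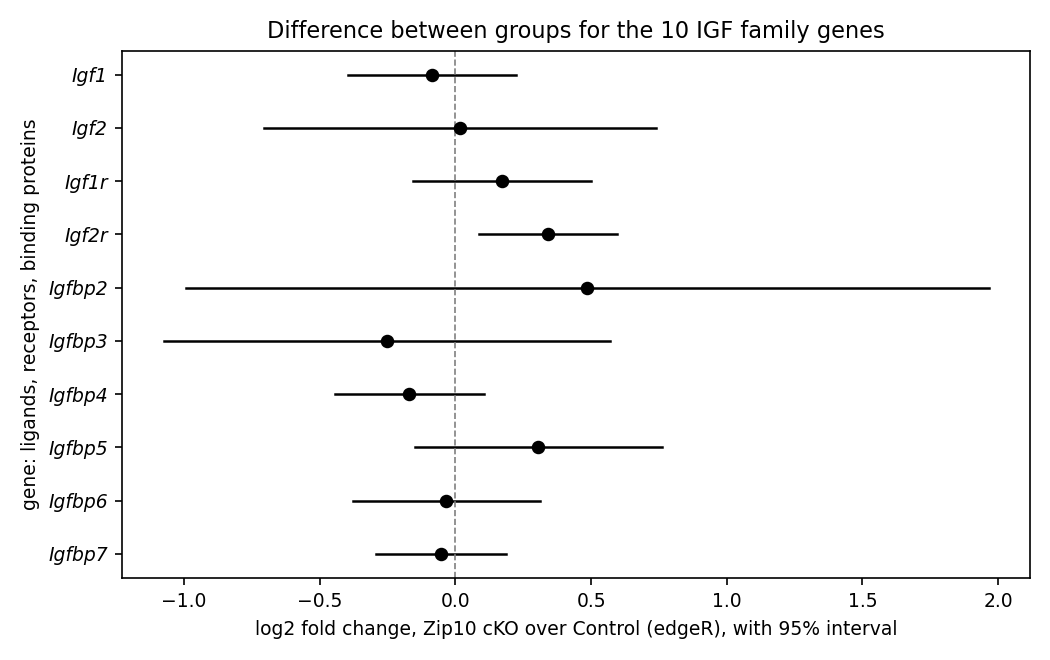
Log2 fold change of Zip10 cKO over control from edgeR's quasi-likelihood test for the 10 genes, with bars for the 95% interval. The interval of Igf2r, 0.09 to 0.60, is the 1 that does not include 0, and those of Igfbp2 and Igfbp3 are the widest.

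Igf1, the main ligand by level, differed by less than the spread between libraries. It stood at 628, 717 and 575 CPM in Zip10 cKO libraries 1 to 3 and at 753, 703 and 582 CPM in control libraries 1 to 3. Library 3 was the lowest of each group and the groups overlapped. The log2 fold change was -0.09 ± 0.14 (SE; edgeR adjusted p = 0.896), a fold of 0.942 with a 95% interval from 0.760 to 1.17. RSEM's length for Igf1, weighted over its 8 annotated transcripts, was 4552, 4467 and 4311 bases in the Zip10 cKO libraries and 4418, 4195 and 3905 bases in the controls, so the estimated mix of transcripts varied between libraries and the groups overlapped. Igf1 was higher than Igf2 in every library, by 14.1 to 26.04 times in TPM in the Zip10 cKO group and by 13.4 to 28.8 times in controls.

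Igf2, the ligand expressed from the paternal allele in most tissues, varied more between libraries than between groups. It was at 21.8, 28.8 and 16.1 CPM in Zip10 cKO libraries 1 to 3 and at 15.4, 32.5 and 18.04 CPM in control libraries 1 to 3. Library 2 was the highest in both groups. The log2 fold change was 0.02 ± 0.31 (SE; edgeR adjusted p = 0.994), with a fold interval from 0.614 to 1.67, and its sign changed when any of Zip10 cKO library 2, control library 1 or control library 3 was left out (-0.22, -0.19 and -0.12). Igf2 overlaps the predicted gene Gm49394 on the same strand, so its count depends on how RSEM split shared reads. H19, the noncoding RNA transcribed from the maternal allele next to Igf2, was at 47.8, 71.3 and 31.2 CPM in the Zip10 cKO libraries and at 43.7, 70.0 and 38.7 CPM in the controls, again with library 2 highest in each group. Mest, another imprinted gene, was at 91.5, 111 and 59.7 CPM in the Zip10 cKO libraries and at 79.4, 139 and 97.6 CPM in the controls. Likeness was measured as the mean absolute difference between profiles of log2 CPM centred on the mean of the 6 libraries. By that measure H19 was the 13th nearest of 16736 tested genes to Igf2, at 0.15, Mest the 34th, at 0.17, and Plagl1, an imprinted transcription factor, the 113th, at 0.22. Other imprinted genes lay further off: Cdkn1c was 1704th, at 0.30, Airn 8443rd, at 0.39, Peg3 11058th, at 0.44, and Dlk1 16014th, at 0.70. Among genes of at least 10 CPM the 2 nearest to Igf2 were Agtr2, an angiotensin receptor, at 0.12, and Fmo2, a flavin-containing monooxygenase, at 0.14.

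**Figure D3:**
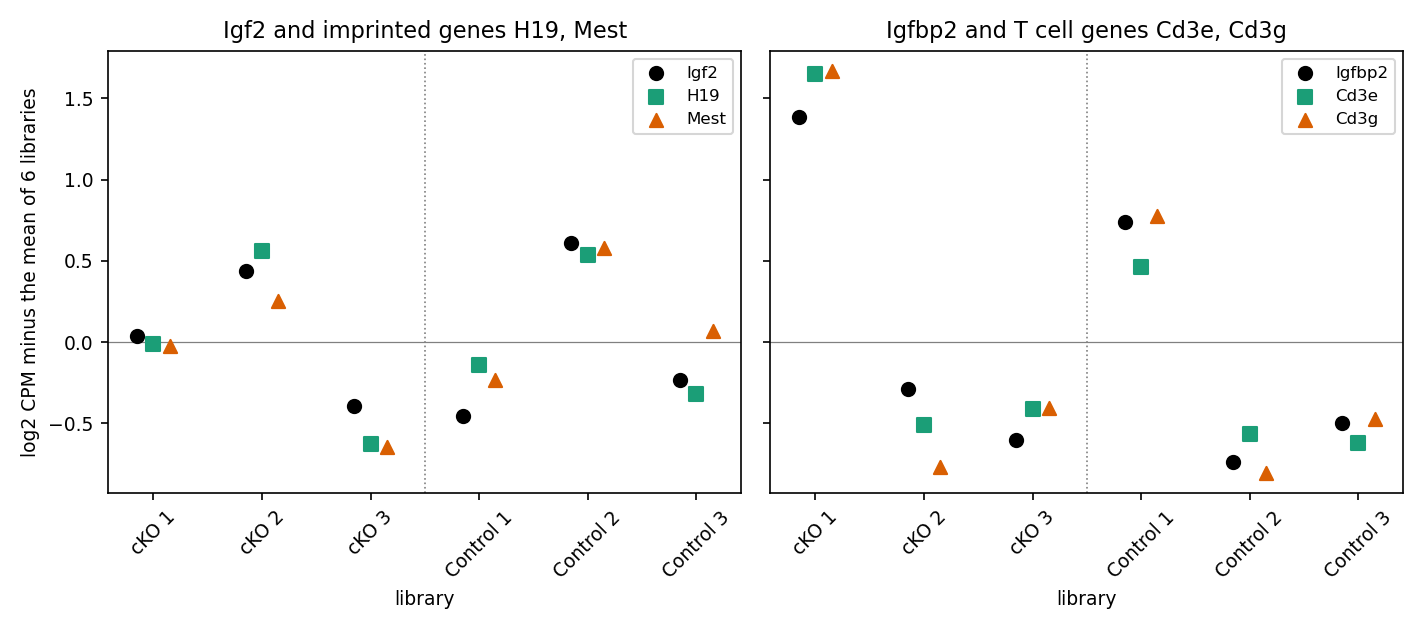
Log2 CPM minus the mean of the 6 libraries for Igf2, H19 and Mest (left) and for Igfbp2, Cd3e and Cd3g (right), by library, with Zip10 cKO left of control. Igf2 and H19 are highest in library 2 of each group, and Igfbp2 and the T cell genes in library 1 of each group.

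Of the receptors, Igf1r overlapped between groups and Igf2r did not. Igf1r was at 64.8, 74.4 and 81.9 CPM in Zip10 cKO libraries 1 to 3 and at 56.3, 78.3 and 61.7 CPM in control libraries 1 to 3. Control library 2 lay above 2 of the Zip10 cKO libraries. The log2 fold change was 0.17 ± 0.14 (SE; edgeR adjusted p = 0.796), with a fold interval from 0.898 to 1.41. It was -0.02 once the trend of each library on gene length was removed.

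Igf2r was at 201, 185 and 170 CPM in Zip10 cKO libraries 1 to 3 and at 131, 152 and 156 CPM in control libraries 1 to 3. Each Zip10 cKO library lay above each control, and the nearest pair, Zip10 cKO library 3 and control library 3, differed by less than the SD of the Zip10 cKO group (15.5 CPM) and by slightly more than that of the controls (13.1 CPM). The fold was 1.27, with a 95% interval from 1.06 to 1.51, and the log2 fold change of 0.34 ± 0.11 (SE) had an edgeR adjusted p of 0.747. A two-sided exact permutation of the library labels gave p = 0.1 for the CPM, the smallest that 3 against 3 allows. In TPM the values were 31.6, 27.0 and 25.9 in the Zip10 cKO libraries and 18.2, 22.8 and 22.9 in the controls. Igf2r is among the longest genes, with an effective length of 8663 bases, and in the longest quintile of all genes tested the median log2 fold change was 0.11, against -0.11 in the shortest. With the length trend removed its log2 fold change was 0.16 and the unadjusted p in edgeR was 0.178, and without Zip10 cKO library 1 that p was 0.0522. Airn, an RNA antisense to Igf2r, was at 12.6, 13.9 and 19.3 CPM in the Zip10 cKO libraries and at 8.26, 12.6 and 12.6 CPM in the controls. The sources used here give no strand setting, so it is not known whether reads where the 2 genes overlap were told apart. The CpG-rich window before Igf2r is the one shown above, with its 3 GC boxes.

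Among the binding proteins, the 3 with the highest TPM, Igfbp7, Igfbp4 and Igfbp6, also varied least between libraries. Their CPM, given here, is not corrected for gene length and orders the genes differently. Igfbp7, a matrix protein common in vessels and stroma, was at 758, 777 and 739 CPM in Zip10 cKO libraries 1 to 3 and at 799, 723 and 839 CPM in control libraries 1 to 3. It was the steadiest member, its highest library being 1.16 times its lowest, and its log2 fold change was -0.05 ± 0.10 (SE; edgeR adjusted p = 0.913). Igfbp4, which inhibits IGF action until the protease PAPP-A cleaves it, was at 865, 978 and 768 CPM in the Zip10 cKO libraries and at 1025, 980 and 932 CPM in the controls. Zip10 cKO library 2 lay among the controls and the other two below them. The log2 fold change was -0.17 ± 0.12 (SE; edgeR adjusted p = 0.777), with a fold interval from 0.735 to 1.08. In TPM Igfbp4 averaged 369 ± 30.8 in the Zip10 cKO group and 382 ± 15.3 in controls (SD, n = 3 each), and on TPM plus 1 its log2 fold change was -0.05. RSEM's length for Igfbp4 was 3220, 3442 and 3255 bases in the Zip10 cKO libraries and 3475, 3400 and 3406 bases in the controls. Igfbp6, which prefers IGF2, was at 223, 270 and 214 CPM in the Zip10 cKO libraries and at 285, 237 and 201 CPM in the controls, with overlapping groups and a log2 fold change of -0.03 ± 0.15 (SE; edgeR adjusted p = 0.972).

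Igfbp5, which binds extracellular matrix, was at 711, 861 and 634 CPM in Zip10 cKO libraries 1 to 3 and at 425, 682 and 678 CPM in control libraries 1 to 3. Control library 1 stood below the other 5 libraries, and Zip10 cKO library 3 below the other 2 controls. This gave a log2 fold change of 0.31 ± 0.20 (SE; edgeR adjusted p = 0.763), with a fold interval from 0.901 to 1.69. Without control library 1 it was 0.10, and with the length trend removed 0.19. The summed level of the 13 stromal markers, most of it from collagen genes, was lowest in control library 1 as well, at 10333 CPM, whereas the stromal markers Hoxa10, Hoxa11 and Twist2 were highest there.

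Igfbp3, the main carrier of IGFs in serum, ranged widely within each group. It was at 73.4, 128 and 205 CPM in Zip10 cKO libraries 1 to 3 and at 129, 141 and 213 CPM in control libraries 1 to 3. Library 3 was the highest in each group and Zip10 cKO library 1 the lowest of all. Between groups the log2 fold change was -0.25 ± 0.35 (SE; edgeR adjusted p = 0.881). It was 0.04 without Zip10 cKO library 1 and -0.68 without Zip10 cKO library 3.

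Igfbp2, which can also bind integrins, was the scarcest member, with 21 to 96 counts in the Zip10 cKO group and 19 to 65 in controls. It was at 4.56, 1.33 and 1.04 CPM in Zip10 cKO libraries 1 to 3 and at 2.86, 0.939 and 1.13 CPM in control libraries 1 to 3. Library 1 of each group was well above its other two, and its highest library was 4.86 times its lowest. Its log2 fold change was 0.49 ± 0.64 (SE; edgeR adjusted p = 0.873). It was -0.47 without Zip10 cKO library 1 and 1.14 without control library 1. The T cell receptor subunit gene Cd3g, at 8.60, 1.47 and 1.94 CPM in the Zip10 cKO libraries and 4.57, 1.43 and 1.84 CPM in the controls, was the 4th nearest of 16736 tested genes to Igfbp2, at a mean absolute difference of 0.18. Cd3e, at 4.18, 0.828 and 0.894 CPM in the Zip10 cKO libraries and 1.76, 0.790 and 0.756 CPM in the controls, was the 6th, at 0.21. Cd8a was the 79th, at 0.37. Of the other lymphocyte markers, Ncr1, an NK cell gene, was 831st, Ptprc 3158th and Nkg7 5283rd. Gzma was 8068th, Cd79a, a B cell gene, 8963rd, Prf1 9567th and Klrb1c, another NK cell gene, 16306th. The part of T cells in the level of Igfbp2 was not tested.

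The genes nearest to the other members in profile, among 10463 others of at least 10 CPM, were found by the same measure. They were Bace2 and Ndufaf4 for Igf1 (0.02 and 0.03), Akap13 and Trrap for Igf1r (0.03 each), and Lats2 and Mbnl2 for Igf2r (0.03 each). For the binding proteins they were Ptger2 and Erbb3 for Igfbp3 (both 0.12), Cct7 and Timm17b for Igfbp4 (both 0.02) and Flrt2 and Nhsl2 for Igfbp5 (0.07 and 0.08). Igfbp6 was nearest to Rnaseh1 and Scand1 (both 0.04), Igfbp7 to Rilpl1 and Gatb (0.01 and 0.02) and Igfbp2 to Pdpn and Slc16a3 (0.24 and 0.26). All profiles share the same 6 libraries, and steady members had the smallest differences.

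Other genes of the pathway were taken from 7 lists with 88 genes, of which 72 passed the filter on low counts. None of them had an adjusted p under 0.05 by edgeR, DESeq2 or limma-voom. At an unadjusted p under 0.05 there were 6 in edgeR (8.3%, beside 6.46% of all genes), 7 in DESeq2 and 7 in limma-voom. Over all genes DESeq2 gave 1201 of 28980 and limma-voom 1074 of 16737. The 28980 include genes of low count, which the 72 do not, so the DESeq2 shares are not of like sets. Of the 72, 48 had log2 fold changes above 0 (66.7%, beside 49.4% of all genes tested), with a median of 0.09, and 41 with the length trend removed. Groups did not overlap for 11 of them (15.3%, beside 12.7% of all genes), 8 with higher and 3 with lower values in the Zip10 cKO group.

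**Figure D4:**
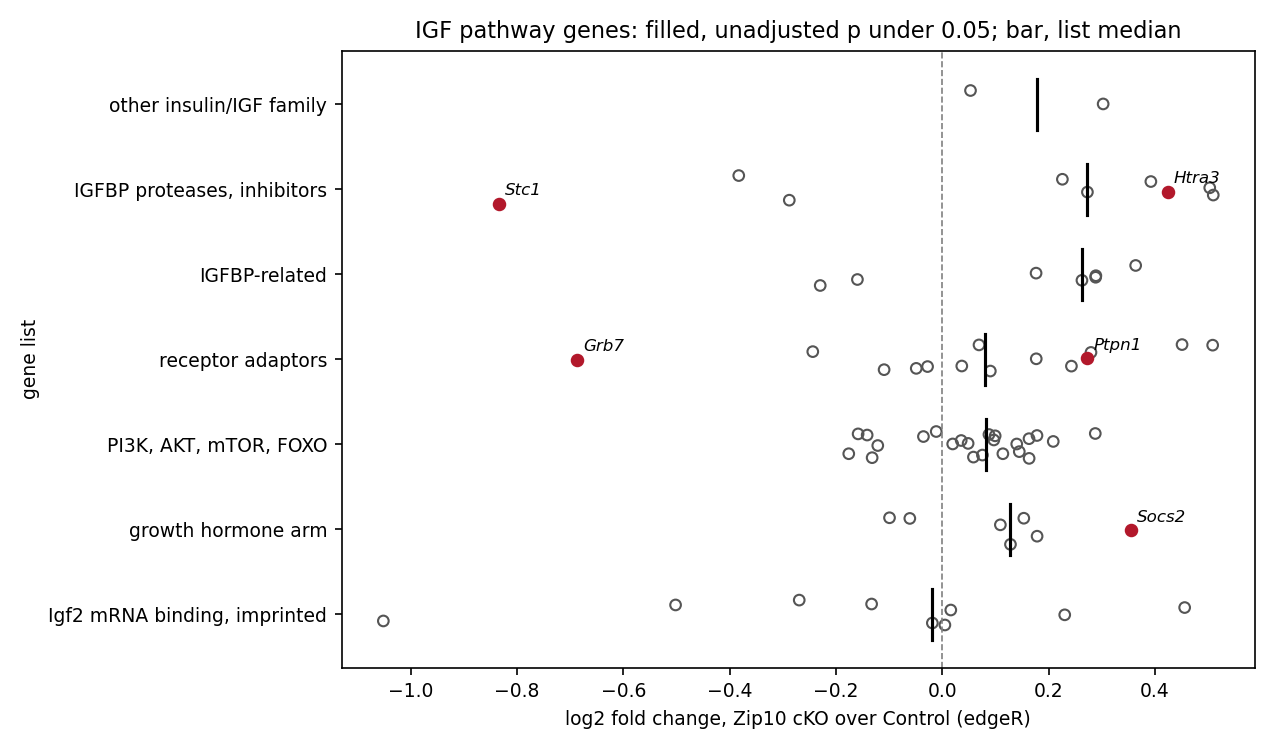
Log2 fold change of Zip10 cKO over control from edgeR for genes of the 7 lists, 1 circle a gene, with a bar at the median of all tested genes of each list; vertical scatter within a list carries no value. Filled circles, with names, are genes at an unadjusted p under 0.05, and the bars lie between -0.02 and 0.27.

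Proteases that cut binding proteins, listed together with the stanniocalcins, had 6 of 9 tested genes at higher values. Htra3, a serine protease of the uterus and placenta, was at 92.9, 95.02 and 101 CPM in Zip10 cKO libraries 1 to 3 and at 59.0, 80.7 and 75.6 CPM in control libraries 1 to 3. The groups did not overlap (log2 fold change 0.42 ± 0.13, SE; edgeR adjusted p = 0.747). Stc1, stanniocalcin 1, an inhibitor of PAPP-A, was at 3.14, 7.55 and 6.21 CPM in the Zip10 cKO libraries and at 9.01, 13.0 and 8.17 CPM in the controls, again without overlap (-0.84 ± 0.33, SE; edgeR adjusted p = 0.747). Stc2, the other stanniocalcin, had a log2 fold change of the opposite sign, 0.39 ± 0.18. Pappa, the protease PAPP-A itself, was at 16.1, 13.6 and 8.39 CPM in the Zip10 cKO libraries and at 7.87, 13.2 and 5.76 CPM in the controls, with overlapping groups.

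Adaptors of the IGF1 and insulin receptors had 9 of 14 genes at higher values, their median being 0.08 on the log2 scale. Grb7, an adaptor that binds receptor tyrosine kinases, was at 14.5, 23.5 and 25.7 CPM in Zip10 cKO libraries 1 to 3 and at 35.2, 36.7 and 30.6 CPM in control libraries 1 to 3, without overlap (-0.69 ± 0.20, SE; edgeR adjusted p = 0.747). Ptpn1, a phosphatase that acts on the insulin receptor, was at 81.6, 75.1 and 77.2 CPM in the Zip10 cKO libraries and at 63.7, 65.7 and 64.3 CPM in the controls, also without overlap (0.27 ± 0.09, SE; edgeR adjusted p = 0.747). Ptpn11, the phosphatase SHP2, did not overlap either, at 186 ± 22.5 CPM in Zip10 cKO libraries and 157 ± 3.09 CPM in controls (SD, n = 3 each).

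In the PI3K, AKT, mTOR and FOXO list, 17 of 24 genes were at higher values, and the median log2 fold change was 0.08. Mtor averaged 70.5 ± 10.6 CPM in Zip10 cKO libraries and 57.7 ± 4.72 CPM in controls, and Pdpk1, the kinase that activates AKT, 66.1 ± 0.952 CPM and 57.2 ± 7.99 CPM (SD, n = 3 each). Both had groups that did not overlap and unadjusted p-values of 0.0501 and 0.105 in edgeR.

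The growth hormone arm, which drives Igf1 in the liver, had 5 of 7 genes at higher values and a median log2 fold change of 0.13. Socs2, a feedback inhibitor of growth hormone signalling, was at 92.4, 69.7 and 67.9 CPM in Zip10 cKO libraries 1 to 3 and at 54.7, 61.5 and 63.8 CPM in control libraries 1 to 3, without overlap (0.35 ± 0.14, SE; edgeR adjusted p = 0.747). Socs3 had a log2 fold change of 0.18 ± 0.12 and Ghr, the growth hormone receptor, one of 0.15 ± 0.15 (SE).

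The IGFBP-related list had 5 of 7 tested genes at higher values and a median of 0.26, led by p by Crim1, a membrane protein with an IGFBP motif, at 0.29 ± 0.14, Ccn3 at 0.36 ± 0.21 and Ccn4 at 0.26 ± 0.20 (log2 fold change, SE). In the list of Igf2 mRNA binding proteins and imprinted genes, 4 of 9 tested genes were at higher values with a median of -0.02. Its smallest p-values belonged to Airn at 0.46 ± 0.22, Plagl1 at 0.23 ± 0.16 and Dlk1 at -1.05 ± 0.74 (log2 fold change, SE). In the wider insulin and IGF family, Insr, the insulin receptor, was at 93.2 ± 5.34 CPM in Zip10 cKO libraries and 89.8 ± 9.71 CPM in controls, and Igflr1 at 2.11 ± 0.906 and 1.71 ± 0.382 CPM (SD, n = 3 each). The other 7 genes of that list did not pass the filter, among them Igfbp1, the binding protein known from human decidua. Igfbp1 had 0 counts in all 6 libraries, where 3 counts would have been 0.134 to 0.153 CPM in the Zip10 cKO group and 0.132 to 0.149 CPM in controls (counting error alone).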

How the data were processed

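Uterine RNA was sequenced in 6 libraries, grouped by their titles. Libraries were made from oligo(dT)-selected, randomly primed RNA, per the labels' protocols. Build GRCm39, RSEM 1.3.3, STAR 2.7.10a, fastp 0.23.2, edgeR 3.38.4 and R 4.2.1 are named in the submitters' processing notes; annotation release and strand setting were not given in the sources used here. RSEM expected counts, which split reads shared by several genes, were deposited by the authors with TPM and the transcript-weighted gene lengths, per the file headers. TPM keeps no depth. GENCODE M21 gave symbols for 91.8% of IDs and is of another build, so no gene coordinates from it are given. It places antisense genes over Igf1, Igf2, Igf2r and Igfbp7, and whether the counts separated their reads by strand is not known.

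Expected counts were rounded, filtered by filterByExpr (minimum count 10, minimum total 15), scaled by TMM and compared by edgeR 4.0.16's robust quasi-likelihood test in R 4.3.3, two-sided, with Benjamini-Hochberg adjustment over 16737 genes. SEs come from the F statistic and intervals are 95%. Log2 CPM for profiles used a prior count of 3. Alternatives were DESeq2 1.42.0, limma 3.58.1 (voom, and trend on TPM plus 1 or 0.1), other scalings and filters, a length trend (loess, span 0.5), a replicate block and leaving out each library. Scripts were tested on simulated data. Figures used matplotlib 3.10.9. The members, lists and tests were chosen with earlier results of these data known. The genes named were the 10 members, Slc39a10, from each list the 3 smallest p-values and any unadjusted p under 0.05, and the 2 nearest profiles for each member; 1 gene that this rule names is not reported here, and other genes were named after their values were seen.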

Additional observations from a re-analysis of the deposited data

How the results depend on the processing

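Over the 16 alternatives, Igf1 and Igfbp4 stayed lower and Igf2r and Igfbp5 higher in the Zip10 cKO group, and no member or list gene passed an adjusted p of 0.05 in any of them. Some members changed sign with all libraries kept. Igf2 did so with upper quartile scaling (-0.0004), and Igf1r went from 0.17 to -0.024 with the length trend removed. Igfbp6 changed sign on TPM with pseudocounts of 1 and 0.1 (0.043 both) and with the trend removed (0.041). Igfbp7 did so in the same 3 settings (0.017, 0.017 and 0.015). With 1 library left out, log2 fold changes ran from -0.22 to 0.41 for Igf2, from -0.47 to 1.14 for Igfbp2, from -0.68 to 0.04 for Igfbp3 and from -0.16 to 0.10 for Igfbp6, and the median of the 10 members from -0.113 to 0.082. Counts of genes called over all genes were 0 in edgeR, 15 with no filter on low counts, 38 in DESeq2, and 0 to 2 with 1 library left out, the 2 being without Zip10 cKO library 1. List genes at an unadjusted p under 0.05 numbered 6, where all genes gave 1081 of 16737. With no filter they numbered 10 (all genes 1534 of 28980) and with the replicate block 12 (all genes 1354 of 16737). The list genes counted were always the 72 that passed the main filter, whereas the 28980 include genes of low count. With 1 library left out the list genes at an unadjusted p under 0.05 ran from 5 to 12. They numbered 5 without control library 1 (all genes 675 of 17060) and 11 without control library 3 (1169 of 17071). Without Zip10 cKO library 2 they numbered 11 (1533 of 17082) and without Zip10 cKO library 3 12 (1373 of 17032). The count over all genes thus moved as well. The cause of these changes was not tested. Deviations from the group means correlated by 0.092, 0.254 and 0.189 between the libraries numbered 1, 2 and 3. Zip10 cKO libraries 2 and 3 correlated best with the control of their own number, and library 1 did not. This does not settle whether the numbers are pairs, so the main fit took none and the replicate block was an alternative. With the block no gene was called and 1354 had an unadjusted p under 0.05 in edgeR, against 1081 without it. The order of members by TPM was the same in each setting tried. Depth limits Igfbp2 most, with as few as 21 counts in a Zip10 cKO library and 19 in a control.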

Other observations

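At all expression levels, the named genes whose centred log2 CPM profiles lay nearest to that of Igfbp2 included several of T cells, singled out after their values were seen. Cxcr6, a chemokine receptor of tissue lymphocytes, was the nearest of 16736 genes, at a mean absolute difference of 0.09. It stood at 12.5, 3.17 and 2.83 CPM in Zip10 cKO libraries 1 to 3 and at 6.81, 2.57 and 2.69 CPM in control libraries 1 to 3. Ccr7, the receptor that guides lymphocytes and dendritic cells to lymph nodes, was the 3rd, at 1.57, 0.598 and 0.447 CPM in the Zip10 cKO libraries and 1.19, 0.395 and 0.614 CPM in the controls. Tcrg-C1 and Trdc, constant segments of the gamma delta T cell receptor, were the 7th and 8th, with Trdc at 15.5, 4.23 and 3.18 CPM in the Zip10 cKO libraries and 5.76, 3.41 and 4.68 CPM in the controls. Lat, an adaptor of T cell receptor signalling, was the 15th. All of these were highest in Zip10 cKO library 1 and next highest in control library 1. Genes of other kinds lay as near: Actn2, a muscle alpha-actinin, was the 2nd and Chst13, a carbohydrate sulfotransferase, the 5th, and the myeloid cell receptors Lilr4b, Clec4d and Cd300ld were the 11th, 13th and 16th.

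Around Igf2 the nearest named genes were of other kinds. Glp1r, the receptor for glucagon-like peptide 1, was the nearest at 0.09, followed by Agtr2 at 0.12, with Angpt4, an angiopoietin, 4th at 0.13, Vipr1, a receptor for vasoactive intestinal peptide, 12th at 0.15 and Eln, elastin, 14th at 0.16. These genes too were chosen after their values were seen.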
